A study of Mus musculus with 8 samples.

Results

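Stratified squamous and cornified envelope genes were examined in RNA-seq libraries of mouse liver tumour organoids. The group holds 36 genes out of 45777 listed in the count files, taken by symbol, and all 36 were found. It was drawn up as a list of known squamous genes after some results of these libraries had been seen. The level of Ivl in the resistant against the parental libraries was in view, as were those of Krt84 and Ly6d in the parental lines. The list was thus in part selected on those values, and they are given as a description. The 36 genes were divided by role into 10 keratins, 10 envelope proteins and cross-linking enzymes, 6 desmosome and corneodesmosome genes, 5 regulators and 5 surface or secreted proteins.

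The organoids, 3-dimensional cultures of epithelium, are labelled as models of hepatocellular carcinoma related to metabolic steatohepatitis, are all of WT genotype, and come from mouse. The lenvatinib-resistant group held 2 libraries (lines SNU-6624 and SNU-6625, with a control label for treatment), the lenvatinib group 2 libraries (the same 2 lines, treated with lenvatinib, an inhibitor of VEGF, FGF and other receptor tyrosine kinases), and the parental group 4 libraries (SNU-6624, SNU-6625, SNU-6622 and SNU-6621, 1 each, control treatment). The sources used here do not give the dose or duration of lenvatinib, the age of the animals or how resistance was produced. Each line is a single culture line, and nothing says that libraries of 1 line came from separate animals, so a p-value here reflects only how these libraries vary, which may be technical.

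Stratified squamous epithelia, such as epidermis and the lining of the oesophagus and forestomach, keep dividing basal cells that make Krt5 and Krt14 under the transcription factor Trp63, and upper cells that switch to other keratins. In the upper cells involucrin, loricrin and the small proline-rich proteins are cross-linked by transglutaminases under the plasma membrane into the cornified envelope, on a scaffold of envoplakin and periplakin that is anchored at desmosomes. Healthy liver parenchyma is not a squamous tissue, and hepatocytes and bile duct cells carry simple epithelial keratins.

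The libraries held 49 to 61 M counts (megacounts) each. Levels are given as CPM, the count divided by the total of its library in megacounts. A count of 3, taken as the floor where a library had 0, corresponds to 0.0492 to 0.0612 CPM and covers counting error only. Against the label of hepatocellular carcinoma, 4 of 8 hepatocyte genes (Alb, Cps1, Fgb and Serpina1a) had 0 counts in all 8 libraries; of the others, Ttr, Apoa1 and Apoa2 had at most 1.45, 0.382 and 0.377 CPM, and Cyp2e1 was at 0 except for 6 counts in parental SNU-6625 and 2369 counts (45.3 CPM) in parental SNU-6621. The bile duct keratin genes Krt19 and Krt7 had 267 and 405 CPM and 749 and 962 CPM in lenvatinib libraries and more in every other library. They are part of a list of 7 biliary genes, of which 5 had 10 CPM or more in every parental line, but not Sox9 and Spp1. With lenvatinib the fitted log2 fold change was negative for 5 of the 7 and positive for 2, Cldn4 (1.15, SE 0.41) and Sox9 (0.56, SE 0.33), neither called. Of 7 fibroblast genes, Col3a1, Dcn, Lum and Pdgfrb had 0 counts in all libraries, and the summed level of the list was 0.218 and 0.147 CPM in resistant, 0.053 and 0.221 CPM in lenvatinib and 0.563, 1.14, 0.495 and 0.134 CPM in parental libraries. Leukocyte genes summed to 1.56 and 1.43 CPM in resistant, 0.407 and 0.405 CPM in lenvatinib and 0.48, 0.775, 0.957 and 0.841 CPM in parental libraries, with Ptprc and Adgre1 at 0 in all and Cd79a detected in all. Csf1r had 0.712 and 1.2 CPM in resistant and 0.053 and 0.0735 CPM in lenvatinib libraries. Both lenvatinib values lay under the level of the low-count filter, 0.18 CPM, so a difference was built in and no test is given. The part of Csf1r in the results below was not tested. Genes for ribosomal RNA took 0.0411 to 0.0533% of counts in resistant and lenvatinib libraries and 0.0942 to 0.11% in parental libraries; no batch is named in the labels, so a split in preparation and the split between groups cannot be told apart. These are bulk samples, in which fewer cells of a type and less RNA per cell cannot be told apart.

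The promoters of the 5 genes that lie together in the epidermal differentiation complex on chromosome 3 are shown first, because 3 of these genes (Ivl, Sprr1a and Lor) moved together between the groups while their neighbours Sprr1b and Sprr3 were hardly detected. The 150 bases before the RefSeq start of each gene (GRCm38.p6, minus strand) are printed 5′ to 3′, with the letters TGANTCA, the motif of AP-1 factors, and TATAAA, the TATA box, in capitals. The Ivl window is chr3:92573736-92573885. For Ivl and for Sprr1b the widest RefSeq span of the gene begins somewhat farther upstream, inside the window.
Ivl: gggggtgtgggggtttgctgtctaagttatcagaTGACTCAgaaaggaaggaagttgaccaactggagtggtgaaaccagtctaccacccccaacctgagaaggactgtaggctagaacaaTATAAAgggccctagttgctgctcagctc
Sprr1a, chr3:92485882-92486031: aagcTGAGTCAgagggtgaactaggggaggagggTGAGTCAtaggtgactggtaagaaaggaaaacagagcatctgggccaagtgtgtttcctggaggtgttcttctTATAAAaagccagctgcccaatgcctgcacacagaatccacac
Lor, chr3:92083143-92083292: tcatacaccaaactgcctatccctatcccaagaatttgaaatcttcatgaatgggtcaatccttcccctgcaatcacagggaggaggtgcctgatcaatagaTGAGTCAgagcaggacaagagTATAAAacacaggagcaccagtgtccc
Sprr1b, chr3:92438780-92438929: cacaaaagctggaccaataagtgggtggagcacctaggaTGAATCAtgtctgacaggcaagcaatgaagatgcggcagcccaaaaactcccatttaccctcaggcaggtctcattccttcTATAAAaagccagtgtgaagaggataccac
Sprr3, chr3:92458721-92458870: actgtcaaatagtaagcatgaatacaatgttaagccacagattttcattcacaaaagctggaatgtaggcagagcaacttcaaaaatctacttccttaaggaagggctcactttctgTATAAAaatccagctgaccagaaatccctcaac
All 5 windows hold TATAAA, which begins 29 bases before the start in Ivl, 43 in Sprr1a, 27 in Lor, 30 in Sprr1b and 33 in Sprr3. The AP-1 letters begin 116 bases before the start in Ivl, 146 and 116 in Sprr1a, 48 in Lor and 111 in Sprr1b, and are not in the Sprr3 window. Both strands were searched over all 32851 promoter windows of this length, of which 4.24% hold TGANTCA and 7.57% hold TATAAA. Promoter windows were found for 20 of the 36 genes, and TGANTCA is in those of 7 (Dmkn, Ivl, Krt13, Lor, Sbsn, Sprr1a and Sprr1b). The letters AACCNGTT, the motif of grainyhead-like factors, are in 1.05% of all windows and in 0 of these 20. A match of letters is a description of the sequence and shows no binding: Sprr1b, whose window holds both motifs, had at most 0.819 CPM in any library, and Sprr3 at most 0.0983 CPM.

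In the parental organoids 15 of the 36 genes had 10 CPM or more in every line, a level reached by 19% of all listed genes. They were the keratin genes Krt4, Krt13 and Krt6a, the envelope genes Ivl, Sprr1a, Evpl and Ppl, the junction genes Dsc2, Perp and Pkp1, the regulators Grhl1, Sfn and Trim29, and Ly6d and Sbsn. A further 12 reached that level in at least 1 parental line, 27 in all, and 9 stayed under it in all 4 (Cdsn, Cnfn, Dsc3, Dsg3, Grhl3, Krt17, Sprr1b, Sprr3 and Tgm3). Over all libraries, 28 genes reached 10 CPM somewhere and 5 never passed 2 CPM. Per annotated exonic kilobase, the mean level over the 4 parental lines was 704 CPM for Krt4, 661 CPM for Sprr1a and 632 CPM for Ly6d, against 29.1 CPM for Ivl, 19.1 CPM for Krt5 and 3.5 CPM for Krt14. By this measure the mucosal keratin Krt4 stood well above the basal pair Krt5 and Krt14 in these organoids.

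**Figure D1:**
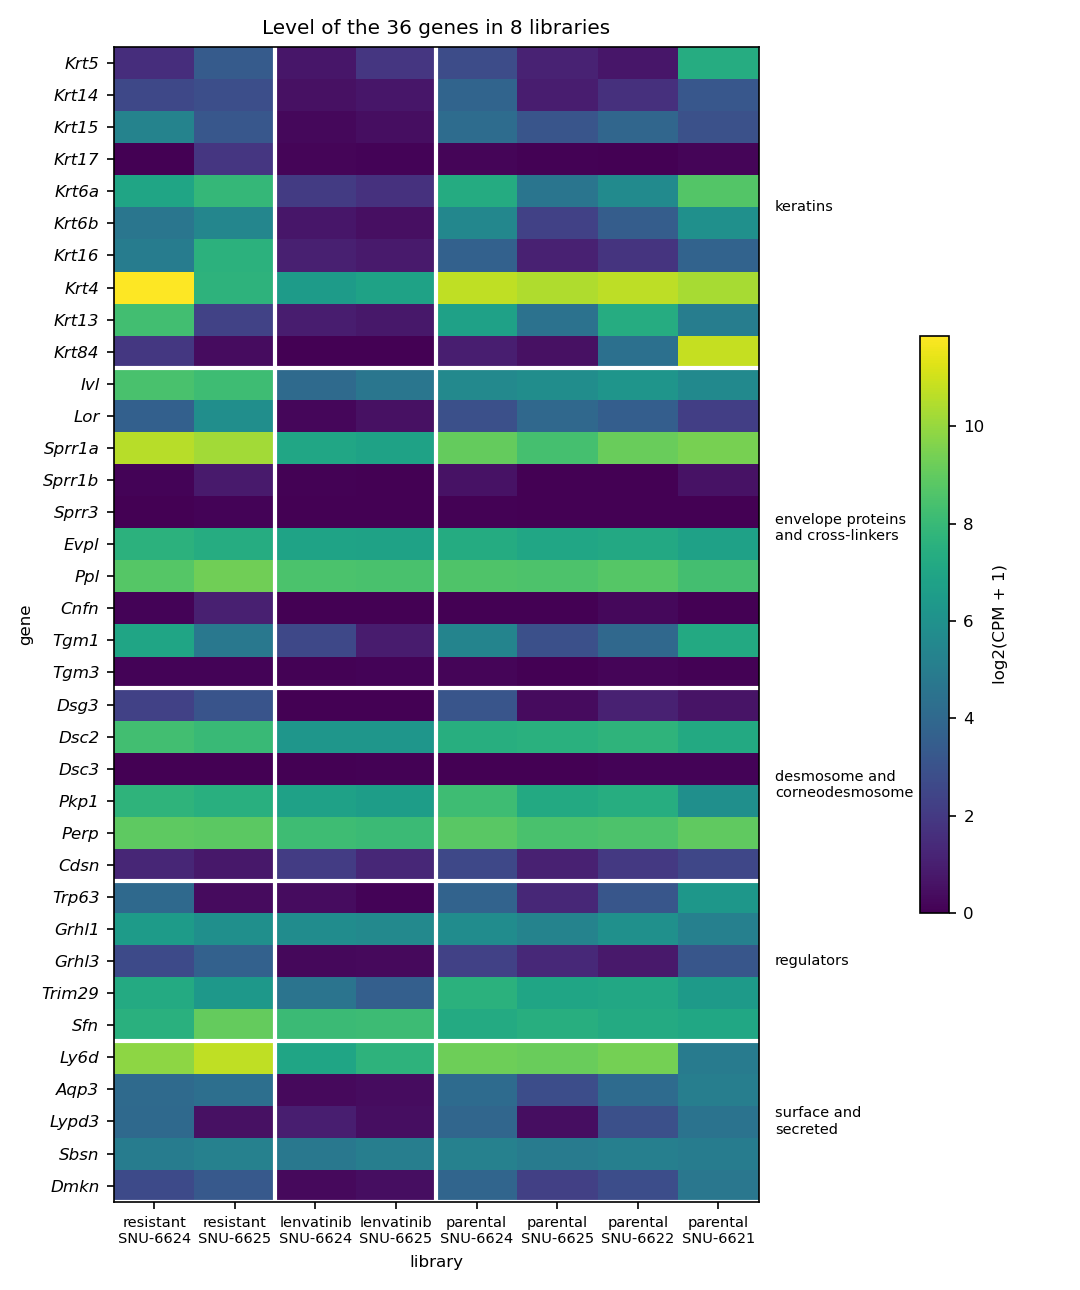
Level of each of the 36 genes (rows, by role) in each of the 8 libraries (columns), as log2(CPM + 1) on the colour scale. The pair of lenvatinib columns is dark in most keratin rows, while the rows of Evpl, Ppl, Perp and Sbsn are nearly even across the libraries; SNU-6621 stands out in the rows of Krt5 and Krt84, with 160.4 and 1814 CPM.

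Lenvatinib organoids had lower levels of many of these genes than parental organoids of the same lines, and resistant organoids higher levels than lenvatinib organoids. Of the 36 genes, 31 passed the filter on low counts and 5 did not (Krt17, Sprr3, Cnfn, Tgm3 and Dsc3). Krt84, Sprr1b and Dsg3 passed it only through other groups than lenvatinib, whose libraries both lay under the filter level of 0.18 CPM for them, so a difference from the lenvatinib group was built in. With these 3 set aside, and those genes whose parental values (Krt84 and Ly6d) or resistant value (Ivl) had been in view, 27 genes were left in each comparison. In edgeR's quasi-likelihood test over 17038 genes, with Benjamini-Hochberg adjusted p under 0.05 taken as called, 8 of the 27 fell with lenvatinib and 0 rose; over all genes tested 4.08% fell and 1.7% rose. Ivl is among these 8 as a description only, because its comparison of resistant with parental libraries had been in view. It also enters the other counts and the median given below for the 27 genes with lenvatinib, which are a description to that extent. Between resistant and lenvatinib libraries 9 of the 27 rose and 0 fell, where 4.14% of all genes rose and 2.08% fell. An unadjusted p under 0.05 was found for 17 and 21 of the 27 in these comparisons, and for 31.8 and 30.4% of all genes. The median log2 fold change of the 27 genes was -2.80 for lenvatinib against parental and 3.60 for resistant against lenvatinib, against -0.01 and 0.02 for all genes tested. The difference was at least 2-fold in both lines on the log2(CPM + 1) scale for 15 of the 27 with lenvatinib (lower; 8.12% of all genes) and for 15 between resistant and lenvatinib libraries (higher; 4.58% of all genes). The comparisons share the lenvatinib libraries, so a high or low value there enters both.

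These calls depended on which libraries were fitted. Without the parental or the lenvatinib library of either line, the edgeR calls with lenvatinib were lost. Without either lenvatinib library, those between resistant and lenvatinib libraries were lost too. In these fits the loss covered the whole table and not only the squamous genes. The median log2 fold change of the squamous genes tested was then -1.47 to -3.21 with lenvatinib. Between resistant and lenvatinib libraries it was 3.56 without lenvatinib SNU-6624 and 4.42 without lenvatinib SNU-6625. Without the resistant library of SNU-6624 or of SNU-6625, 22 or 23 of the squamous genes fell with lenvatinib and 1 rose, but 23 or 22.8% of all genes then fell and 20.3 or 20.9% rose. On all 6 libraries, counting all 31 tested genes, DESeq2 called 19 lower with lenvatinib (13.7% of all genes) and 23 higher in resistant libraries (13% of all genes). In limma-voom 12 were lower (6.5% of all genes) and 13 higher (5.77% of all genes), and neither tool called any of the 31 in the other direction. Neither these counts nor the 22 or 23 above leave out the genes set aside before, whose difference was built in or whose values had been in view. They are therefore a description.

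**Figure D2:**
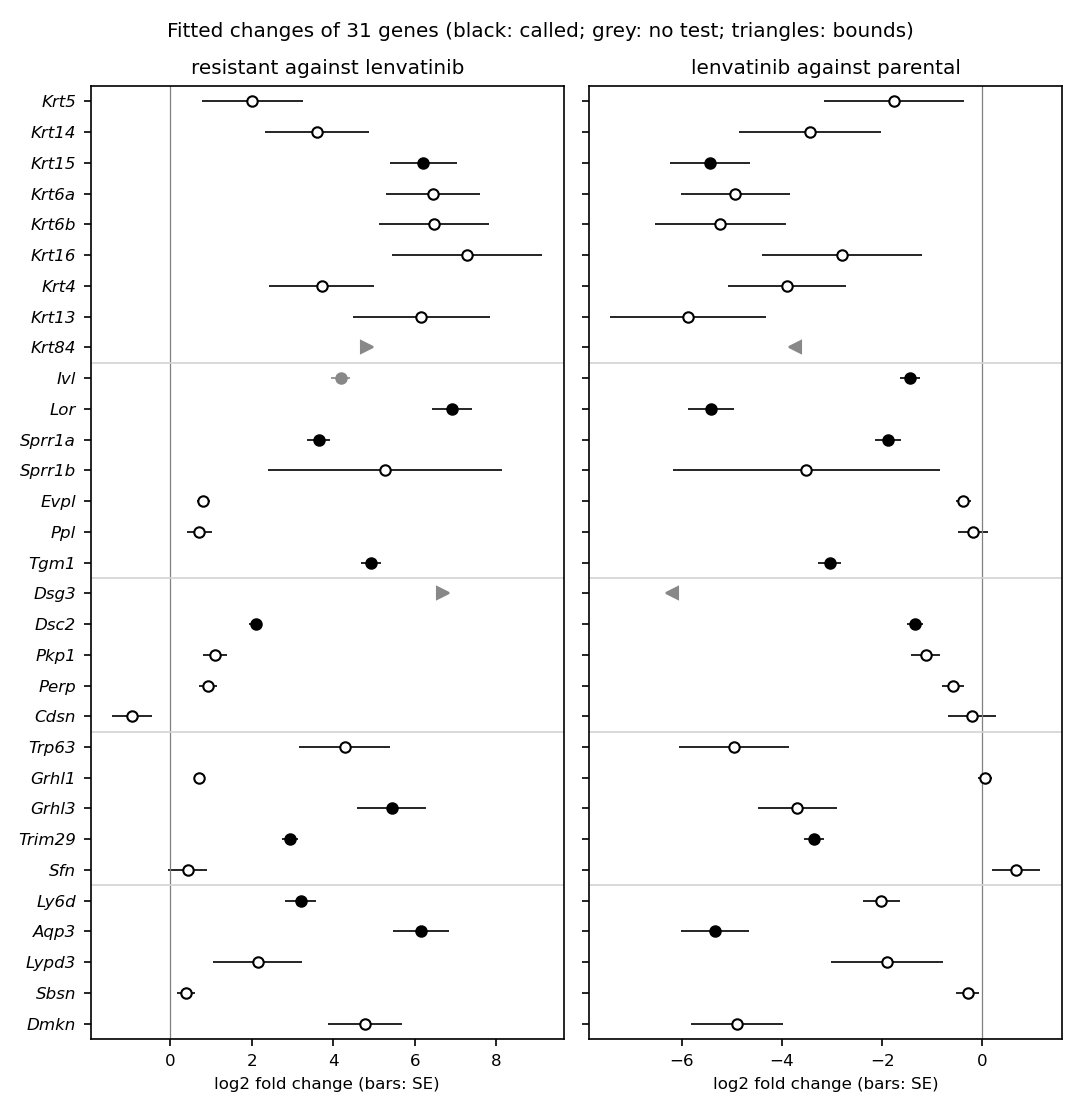
Fitted log2 fold changes (points; bars are SE) of 31 genes, by role from top to bottom, for resistant against lenvatinib libraries on the left and lenvatinib against parental libraries on the right, n = 2 libraries per group. Black filled points were called, open points were not, and grey marks have no test: Ivl on the left, whose resistant level had been in view, and triangles for Krt84 and Dsg3, which had 0 counts in lenvatinib libraries and are drawn at the bound set by the floor. Every envelope point lies right of 0 on the left and left of 0 on the right, and Evpl and Ppl lie near 0 in both. On the right, Ivl and Ly6d are drawn as tested but are descriptions, because their parental values had been in view. Sprr1b is a description on both sides, because it passed the filter only through other groups than lenvatinib.

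Among the keratins, Krt4 led the summed level of the squamous set in 6 of 8 libraries, and the sum was lower in lenvatinib than in all other libraries, but the resistant cultures of the 2 lines held different keratins. The 10 keratins together had 4269 and 711 CPM in resistant, 98.8 and 121 CPM in lenvatinib and 2048, 1459, 1915 and 3768 CPM in parental libraries; values stand in the order SNU-6624, SNU-6625 and, for parental libraries, then SNU-6622 and SNU-6621, here and below. Krt4 held 82.4 to 95.9% of this sum in 6 libraries; in parental SNU-6621 it held 33.6%, behind Krt84 at 48.1%, and in resistant SNU-6625 29%, behind Krt6a at 33.3%. Of 9 keratins tested, Krt84 passed the filter only through other groups than lenvatinib, so its direction was built in. All others had a negative fitted change with lenvatinib, and Krt15 was called. As a description, the median log2 fold change of all 9, Krt84 included, was -4.93, or -3.9 with Krt84 at its bound. Between resistant and lenvatinib libraries the fitted changes of the keratins other than Krt84 were all positive, with Krt15 called. The median of all 9 there was 6.21, or 6.16 with the bound. In markers of urothelium, another stratified epithelium, the summed level of 5 uroplakin genes was 69.9 and 1.25 CPM in resistant, 3.57 and 3.48 CPM in lenvatinib and 30, 40.9, 39.3 and 86.3 CPM in parental libraries, with Upk2 at 0 in all. In SNU-6624 this order was that of the keratin sum, whereas in SNU-6625 the uroplakin sum was lower in the resistant than in the lenvatinib library; its part in the keratin values was not tested.

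Krt4, a keratin of the suprabasal layers of mucosal epithelia such as oesophagus, had 3729.6 and 206 CPM in resistant, 91.6 and 113 CPM in lenvatinib and 1687, 1398, 1654 and 1266 CPM in parental libraries. Its lenvatinib values lay below all others, and its 2 resistant values lay on either side of the parental ones. The log2 fold change was -3.90 (SE 1.18, adjusted p = 0.113) for lenvatinib against parental and 3.71 (SE 1.29, adjusted p = 0.146) for resistant against lenvatinib, neither called. Krt13, its usual partner keratin, had 312 and 4.06 CPM in resistant, 0.955 and 0.717 CPM in lenvatinib and 109, 21.2, 163 and 31.8 CPM in parental libraries, with changes of -5.87 (SE 1.55, adjusted p = 0.091) and 6.16 (SE 1.68, adjusted p = 0.0947) in the same order. The resistant culture of SNU-6624 was thus high and that of SNU-6625 low for both members of this pair.

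Krt6a and Krt6b, keratins of hair follicles, mucosa and wounded epidermis, and their partner Krt16 had the opposite split. Krt6a had 124 and 237 CPM in resistant, 3.24 and 2.22 CPM in lenvatinib and 159, 23.8, 49.5 and 408 CPM in parental libraries. For Krt6b the levels were 24.6 and 42.3 CPM in resistant, 0.654 and 0.405 CPM in lenvatinib and 43.8, 3.94, 10.3 and 60.5 CPM in parental libraries. Both copies were lowest in the lenvatinib libraries, and the resistant library was above its parental line in SNU-6625 only. Krt16 had 31.1 and 194 CPM in resistant, 1.08 and 0.791 CPM in lenvatinib and 12, 1.14, 2.44 and 12.8 CPM in parental libraries. In SNU-6625 the resistant library had 170.2 times the Krt16 level of the parental library, from 11866 counts against 56. The log2 fold change with lenvatinib was -4.93 (SE 1.09, adjusted p = 0.0707) for Krt6a, -5.23 (SE 1.31, adjusted p = 0.0834) for Krt6b and -2.80 (SE 1.60, adjusted p = 0.295) for Krt16. Between resistant and lenvatinib libraries it was 6.45 (SE 1.16, adjusted p = 0.0518), 6.47 (SE 1.35, adjusted p = 0.0635) and 7.28 (SE 1.85, adjusted p = 0.0853), and none of these was called. With no line term the change of Krt6a between resistant and lenvatinib libraries passed (adjusted p = 0.0446). Krt6a and Krt6b are near-identical copies, as are parts of Krt14, Krt16 and Krt17, and may share reads.

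Krt5 was low outside parental SNU-6621. Of the other basal keratins, Krt14 had its highest value in parental SNU-6624 and Krt15 in resistant SNU-6624. Krt5 had 1.9 and 9.72 CPM in resistant, 0.637 and 2.65 CPM in lenvatinib and 5.68, 1.22, 0.649 and 160.4 CPM in parental libraries, so that SNU-6621 alone passed 10 CPM. Krt14, which pairs with Krt5 in basal cells, had 4.91 and 6.31 CPM in resistant, 0.424 and 0.644 CPM in lenvatinib and 13.3, 0.939, 2.1 and 8.3 CPM in parental libraries. With lenvatinib Krt5 differed in direction between the lines, at 0.112 times the parental level in SNU-6624 and 2.16 times in SNU-6625. The fitted log2 fold change with lenvatinib was -1.76 (SE 1.40, adjusted p = 0.435) for Krt5 and -3.44 (SE 1.41, adjusted p = 0.181) for Krt14, and between resistant and lenvatinib libraries 2.01 (SE 1.24, adjusted p = 0.34) and 3.60 (SE 1.28, adjusted p = 0.151), none called. Krt17 had at most 2.64 CPM, in the resistant SNU-6625 library, and at most 0.134 CPM in every other library. Krt15, a keratin of basal and stem cells, had 38.2 and 8.29 CPM in resistant, 0.177 and 0.349 CPM in lenvatinib and 17.4, 7.75, 14.2 and 6.63 CPM in parental libraries. Its lenvatinib values, like those of Krt14, did not overlap those of any other group. Unlike Krt14, Krt15 was called: it fell with lenvatinib by 5.43 on the log2 scale (SE 0.80, adjusted p = 0.0437) and rose between resistant and lenvatinib libraries by 6.21 (SE 0.83, adjusted p = 0.038).

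Krt84, a hair keratin, was abundant in SNU-6621 and low elsewhere: it had 2.75 and 0.328 CPM in resistant libraries and 0 counts in both lenvatinib libraries, against 1.01 and 0.428 CPM in parental SNU-6624 and SNU-6625, 19.7 CPM in SNU-6622 and 1814 CPM in SNU-6621. Against the floor of 3 counts per library, the mean lenvatinib level was at least 13.3-fold lower than the parental one and the mean resistant level at least 28.4-fold higher than the lenvatinib one. These bounds rest mostly on SNU-6624: line by line they were at least 19-fold lower in SNU-6624 and 7.77-fold lower in SNU-6625 with lenvatinib, and at least 51.9-fold and 5.94-fold higher in the resistant libraries. No test is given, because Krt84 passed the filter only through groups other than lenvatinib.

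**Figure D3:**
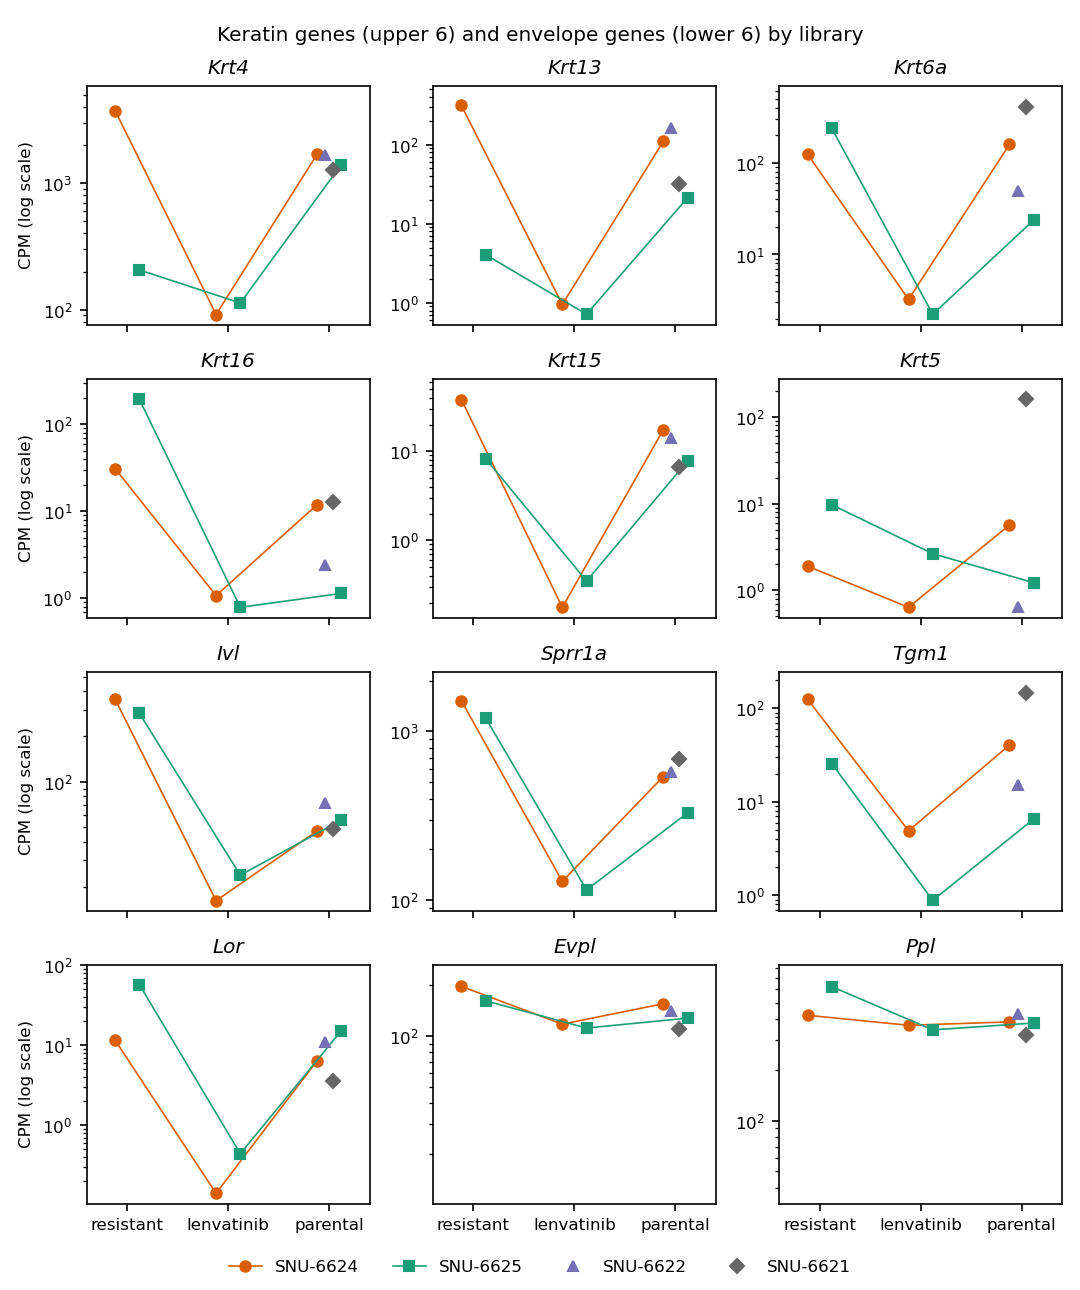
CPM (log axes) of 6 keratin genes and 6 envelope genes in each library, with resistant, lenvatinib and parental libraries from left to right; symbols and colours mark the line, and lines join libraries of SNU-6624 and of SNU-6625. The 2 lines run apart in the resistant column for Krt4 and Krt13 and close together for Ivl and Sprr1a, whereas Evpl and Ppl are nearly flat.

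The envelope genes split into a set that moved with the groups and a scaffold that varied little. Of the 7 tested, Lor, Sprr1a and Tgm1 fell with lenvatinib and rose between resistant and lenvatinib libraries, and Evpl and Ppl were called in neither comparison. Sprr1b, called in neither, passed the filter only through other groups than lenvatinib, and Ivl is given as a description. The median log2 fold change of the 7, Ivl and Sprr1b included, was -1.88 with lenvatinib and 4.18 between resistant and lenvatinib libraries. These medians are a description, and 4.18 is the value of Ivl itself. Ivl, which encodes involucrin, an early envelope precursor, had 353 and 285 CPM in resistant, 16.2 and 24 CPM in lenvatinib and 47.1, 55.7, 72.5 and 48.8 CPM in parental libraries. The 3 groups did not overlap, with the resistant libraries highest. Its log2 fold change was -1.45 (SE 0.20) for lenvatinib against parental, a description, because Ivl had been in view in the comparison of resistant with parental libraries. For resistant against lenvatinib it was 4.18 (SE 0.23), given as a description with no test because the resistant level of Ivl was known when the list was made.

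Sprr1a, a small proline-rich cross-bridging protein, had 1521 and 1202 CPM in resistant, 129 and 115 CPM in lenvatinib and 540.1, 329, 578 and 683 CPM in parental libraries. The order of the groups was that of Ivl, again without overlap, with changes of -1.88 (SE 0.26, adjusted p = 0.0419) and 3.64 (SE 0.28, adjusted p = 0.0216). Lor, which encodes loricrin, the main late envelope protein of epidermis, had 11.5 and 57.2 CPM in resistant, 0.141 and 0.441 CPM in lenvatinib and 6.39, 15.2, 10.9 and 3.58 CPM in parental libraries. Its lenvatinib values, 8 and 24 counts, were the lowest, and its resistant and parental ranges overlapped. The changes of Lor were -5.42 (SE 0.46, adjusted p = 0.0323) and 6.91 (SE 0.49, adjusted p = 0.0194); with no line term the first was not called (adjusted p = 0.0588).

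Tgm1, the membrane-bound transglutaminase that cross-links envelope proteins, had 125 and 25.6 CPM in resistant, 4.9 and 0.883 CPM in lenvatinib and 40.5, 6.55, 15.3 and 146 CPM in parental libraries. The lines differed several-fold within each group, but within each line the order was resistant, parental, lenvatinib. With line as a term the changes of Tgm1 were -3.05 (SE 0.22, adjusted p = 0.0275) and 4.93 (SE 0.24, adjusted p = 0.0174); with no line term neither was called (adjusted p = 0.194 and 0.102). Tgm3, a transglutaminase of late epidermal and hair differentiation, had at most 0.137 CPM in any library. Cnfn, which encodes cornifelin, had at most 1.03 CPM.

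Evpl and Ppl, the plakins of the scaffold, varied less than 2-fold between the highest and the lowest library. Evpl had 197 and 162 CPM in resistant, 118 and 112 CPM in lenvatinib and 155, 128, 141 and 111 CPM in parental libraries. Ppl had 421 and 623 CPM in resistant, 368 and 345 CPM in lenvatinib and 385, 379, 428 and 321 CPM in parental libraries. The changes with lenvatinib were -0.38 (SE 0.15, adjusted p = 0.176) for Evpl and -0.18 (SE 0.30, adjusted p = 0.714) for Ppl, and those between resistant and lenvatinib libraries 0.81 (SE 0.16, adjusted p = 0.0568) and 0.71 (SE 0.30, adjusted p = 0.201). For Ppl the SE of 0.3 means that a change of the size seen for Ivl lies several SE away, while a small one cannot be told from 0.

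Among the desmosome genes, the cadherin gene Dsc2 moved and the others were not called. Dsc2 had 304 and 259.5 CPM in resistant, 75.2 and 73.7 CPM in lenvatinib and 173, 184, 208 and 149 CPM in parental libraries, with no overlap between the groups. It fell with lenvatinib by 1.34 on the log2 scale (SE 0.16, adjusted p = 0.0371) and rose between resistant and lenvatinib libraries by 2.09 (SE 0.16, adjusted p = 0.023). Perp, a tetraspan protein of desmosomes and a p63 target, had 485 and 466 CPM in resistant, 293 and 271 CPM in lenvatinib and 452, 356, 376 and 496 CPM in parental libraries. Pkp1, a desmosomal plaque protein of upper layers, had 208 and 181 CPM in resistant, 109 and 96.8 CPM in lenvatinib and 293, 148, 167 and 59.7 CPM in parental libraries. Both were lower in the lenvatinib than in the parental library of each line, without passing the test (-0.59 (SE 0.22, adjusted p = 0.149) for Perp and -1.13 (SE 0.29, adjusted p = 0.0883) for Pkp1). Between resistant and lenvatinib libraries the values were 0.93 (SE 0.22, adjusted p = 0.0744) and 1.10 (SE 0.29, adjusted p = 0.0908), also not called.

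The desmogleins and desmocollins typical of skin were scarce. Dsg3, a desmoglein of basal and mucosal layers, had 3.86 and 7.42 CPM in resistant libraries, 0 counts in both lenvatinib libraries and 7.67, 0.265, 1.14 and 0.554 CPM in parental libraries. Against the floor of 3 counts per library its mean lenvatinib level was at least 73.3-fold lower than the parental one and its mean resistant level at least 104.3-fold higher than the lenvatinib one. The parental bound rests on SNU-6624: line by line it was at least 145-fold in SNU-6624, from 463 parental counts, and 4.81-fold in SNU-6625, from 13, while the resistant bound was 72.7-fold and 135-fold. No test is given, because Dsg3 passed the filter only through the other groups. Dsc3 had at most 0.0854 CPM. Cdsn, which encodes corneodesmosin of the outermost layers, had 1.4 and 0.721 CPM in resistant, 3.34 and 1.47 CPM in lenvatinib and 4.9, 1.1, 2.89 and 4.8 CPM in parental libraries, and was the only one of the 31 tested genes with a negative fitted change between resistant and lenvatinib libraries (-0.94 (SE 0.49, adjusted p = 0.267), not called).

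The regulators followed no common course with lenvatinib, where 3 had a negative and 2 a positive fitted change. Between resistant and lenvatinib libraries all 5 fitted changes were positive, with Grhl3 and Trim29 called. Trim29, a tripartite-motif protein abundant in squamous epithelia, had 149 and 78.5 CPM in resistant, 22.3 and 11.2 CPM in lenvatinib and 187, 126, 136 and 88.3 CPM in parental libraries. It fell with lenvatinib by 3.36 on the log2 scale (SE 0.20, adjusted p = 0.0275) and rose between resistant and lenvatinib libraries by 2.94 (SE 0.19, adjusted p = 0.0174), and its resistant values lay below the parental value of the same line. Grhl3, a grainyhead-like factor of epidermal barrier formation, had 5.3 and 11.9 CPM in resistant, 0.212 and 0.239 CPM in lenvatinib and 3.86, 1.61, 0.752 and 7.99 CPM in parental libraries. Its lenvatinib values rest on 12 and 13 counts; the change was -3.69 (SE 0.79, adjusted p = 0.0678) with lenvatinib, not called, and 5.43 (SE 0.84, adjusted p = 0.0434) between resistant and lenvatinib libraries, called. Grhl1, a factor of the same family, had 91 and 59.5 CPM in resistant, 53.8 and 47.4 CPM in lenvatinib and 54, 39.1, 60.3 and 35.4 CPM in parental libraries, and its fitted change was 0.05 (SE 0.14, adjusted p = 0.815) with lenvatinib and 0.71 (SE 0.14, adjusted p = 0.0599) between resistant and lenvatinib libraries.

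Trp63, the master factor of basal squamous cells, had 15.5 and 0.262 CPM in resistant, 0.301 and 0.0919 CPM in lenvatinib and 12.8, 1.49, 7.91 and 77.6 CPM in parental libraries. The resistant SNU-6625 library, at 16 counts, was as low as the lenvatinib ones, and the changes of -4.95 (SE 1.10, adjusted p = 0.0707) and 4.28 (SE 1.12, adjusted p = 0.0891) were not called. Sfn, which encodes 14-3-3 sigma, an epithelial cell cycle regulator, was one of 2 genes with a positive fitted change with lenvatinib, Grhl1 being the other. Sfn had 184 and 531 CPM in resistant, 268 and 283 CPM in lenvatinib and 153, 175, 151 and 135 CPM in parental libraries. The change was 0.68 (SE 0.48, adjusted p = 0.379) with lenvatinib and 0.42 (SE 0.49, adjusted p = 0.606) between resistant and lenvatinib libraries, not called on the 6 libraries; the resistant value of SNU-6625 was the highest and that of SNU-6624 below both lenvatinib values.

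Of the surface and secreted proteins, Ly6d and Aqp3 moved with the groups. Ly6d, a GPI-anchored surface protein of stratified epithelia, had 935 and 1717 CPM in resistant, 123 and 201 CPM in lenvatinib and 613, 566, 672 and 29.3 CPM in parental libraries, so that SNU-6621 was the lowest of all libraries. Its change with lenvatinib was -2.02 (SE 0.37), given as a description with no test because its parental values had been in view. Between resistant and lenvatinib libraries it was 3.20 (SE 0.38, adjusted p = 0.0343), called. Aqp3, the water and glycerol channel of basal epidermis, had 16 and 19.2 CPM in resistant, 0.248 and 0.313 CPM in lenvatinib and 16.5, 5.94, 16.6 and 32.8 CPM in parental libraries. It fell with lenvatinib by 5.33 on the log2 scale (SE 0.68, adjusted p = 0.0392), to 14 and 17 counts in lenvatinib libraries, and rose between resistant and lenvatinib libraries by 6.16 (SE 0.69, adjusted p = 0.0327).

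The other surface and secreted genes were not called with line as a term. Dmkn, which encodes dermokine, a secreted protein of upper epidermis, had 5.24 and 8.95 CPM in resistant, 0.248 and 0.349 CPM in lenvatinib and 13.7, 3.71, 6.08 and 25.1 CPM in parental libraries, with a change of -4.89 (SE 0.92, adjusted p = 0.0574) with lenvatinib and 4.78 (SE 0.90, adjusted p = 0.0552) between resistant and lenvatinib libraries; with no line term both were called (adjusted p = 0.0412 and 0.0428). Lypd3, a surface protein of suprabasal keratinocytes, was highest in parental SNU-6621 and low in every SNU-6625 library, at 15.4 and 0.442 CPM in resistant, 0.99 and 0.349 CPM in lenvatinib and 14, 0.347, 6.41 and 21.8 CPM in parental libraries; an RNA gene that overlaps it, Gm26550, reached 7 CPM. Sbsn, which encodes the secreted protein suprabasin, had 30.8 and 36 CPM in resistant, 25.8 and 32.3 CPM in lenvatinib and 36.5, 29.8, 34 and 31 CPM in parental libraries, and its change with lenvatinib was -0.29 (SE 0.23, adjusted p = 0.435). Dmkn and Sbsn are neighbours on chromosome 7.

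In the resistant organoids against the parental ones, Ivl, Sprr1a, Tgm1 and Lor were higher in both lines while several keratins went opposite ways in the 2 lines. These values are a description, because this comparison was in view when the genes were chosen, and edgeR called 0% of all genes higher and 0% lower in it (2715 genes had an unadjusted p under 0.05; the smallest adjusted p was 0.247). Over all genes DESeq2 called 536 higher and 568 lower, and limma-voom 0. The fitted log2 fold change was 2.73 (SE 0.21) for Ivl, 1.89 (SE 0.20) for Tgm1, 1.76 (SE 0.26) for Sprr1a and 1.49 (SE 0.37) for Lor. The median over the 31 genes was 0.74, with 1.76 for the envelope genes, 0.67 for the keratins, 0.33 for the desmosome genes, 0.76 for the regulators and 0.23 for the surface and secreted genes, against -0.01 for all genes.

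Line by line, Ivl was 7.5 times the parental level in resistant SNU-6624 and 5.12 times in resistant SNU-6625. The corresponding ratios were 2.82 and 3.66 for Sprr1a, 3.09 and 3.91 for Tgm1, and 1.8 and 3.77 for Lor. A difference of at least 2-fold on the log2(CPM + 1) scale was reached in both lines by 4 genes that were higher (Ivl, Krt16, Sprr1a and Tgm1; 0.892% of all genes) and by 0 that were lower (1.9% of all genes). It was reached in opposite directions by 5 genes, Dmkn, Krt13, Krt14, Krt4 and Krt5, where 0.311% of all genes did so. Krt4 and Krt13 were higher in resistant SNU-6624 and lower in resistant SNU-6625, and Krt5, Krt14 and Dmkn the reverse.

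Within each line, from 1 library per group, the median difference of the 9 keratins was 0.9 in SNU-6624 and 1.91 in SNU-6625 on that scale, against 0.01 and -0.15 for all genes. The 0.9 is the value of Krt84 itself, whose parental values had been in view. In SNU-6625 the keratin sum went the other way, at 711 CPM in the resistant and 1459 CPM in the parental library. In SNU-6624 these sums were 4269 and 2048 CPM. Krt6a, Krt6b and Dsg3 were also lower than the parental level in resistant SNU-6624, at 0.785, 0.56 and 0.503 times, and higher in resistant SNU-6625, at 9.97, 10.7 and 28 times. Each line had 1 resistant library, so the difference between the lines was not tested. In resistant SNU-6625 the urothelial gene Upk1a and the hair keratin gene Krt83 were also low, at 0.999 and 0.901 CPM, against 20.4 and 66.1 CPM in its parental library.

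**Figure D4:**
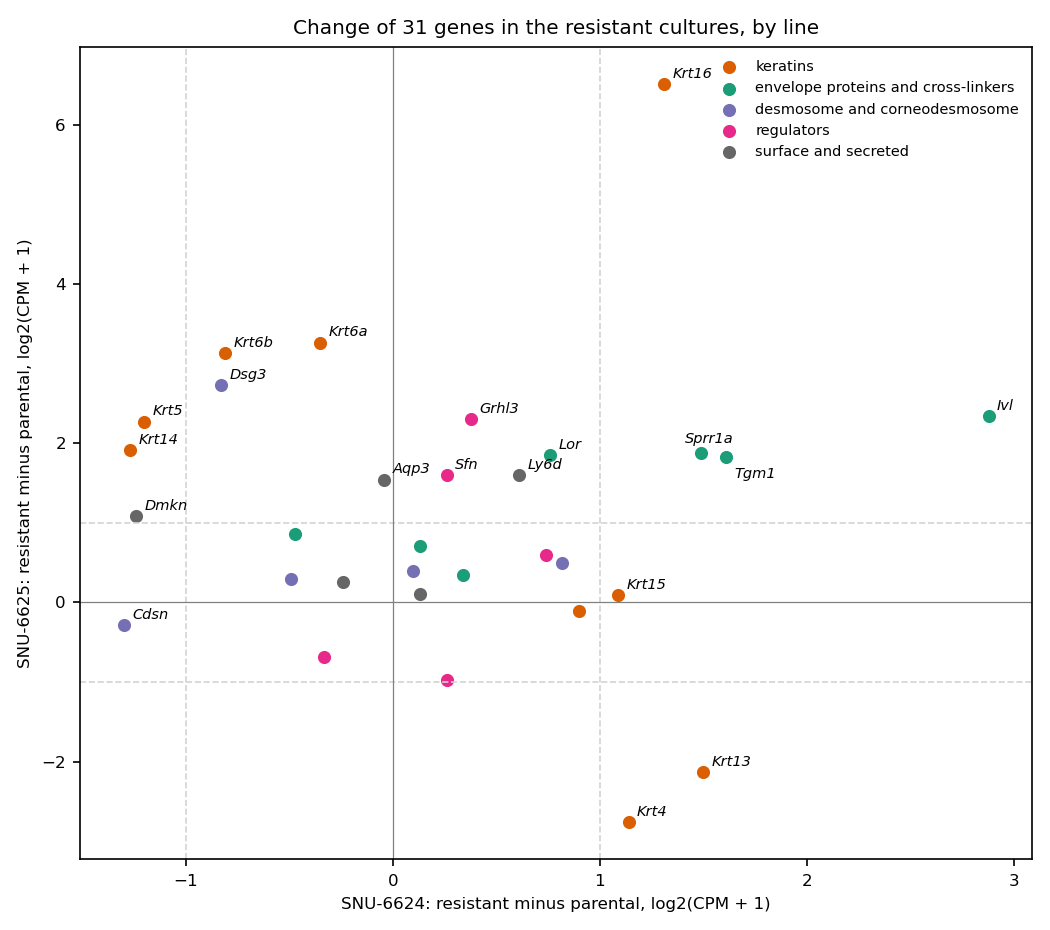
Resistant minus parental difference in log2(CPM + 1) of the 31 tested genes, SNU-6624 on the x axis and SNU-6625 on the y axis, coloured by role, with dashed lines at 2-fold. Ivl, Sprr1a, Tgm1 and Krt16 lie beyond both lines at the upper right; Krt4 and Krt13 lie at the lower right and Krt5, Krt14 and Dmkn at the upper left.

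The 4 parental lines held Krt4 and several envelope genes within a narrow range and lay far apart in Krt5, Trp63 and Krt84. Ivl was 56 ± 11.6 CPM, Evpl 134 ± 19.1 CPM, Ppl 378 ± 43.7 CPM, Sbsn 32.8 ± 3.03 CPM and Krt4 1501 ± 203 CPM (mean ± SD, n = 4 lines each). Krt5, by contrast, was 42 ± 79 CPM, Krt84 459 ± 904 CPM and Trp63 24.9 ± 35.4 CPM over the same 4 lines, all highest in SNU-6621. SNU-6621 was at least 4-fold above every other parental line for these 3 genes, and at least 4-fold below every other for Ly6d; among genes with 10 CPM in a parental line, 2.67% stood above and 1.42% below in this way. The parental values of Krt84 and Ly6d had been in view when the genes were chosen. The basal keratin Krt14 was instead highest in SNU-6624 and spanned 14.1-fold over the parental lines, and Krt15 spanned 2.62-fold, with SNU-6621 lowest. Krt6a and Tgm1 were also highest in SNU-6621 and lowest in SNU-6625, with a less than 4-fold gap to the next line. Each line has 1 parental library, so line and library cannot be told apart.

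Within the epidermal differentiation complex, most genes were hardly detected. Of the 56 protein-coding genes listed between S100a9 and S100a11, chr3:90726906-93471980 in GRCm38.p6, 6 had 10 CPM or more in every parental line (Sprr2a1, Sprr2a2, Sprr2a3, Sprr1a, Ivl and Tchh) and 11 in any library. A further 35 stayed under 1 CPM in every library, among them the filaggrin genes Flg and Flg2, the hornerin gene Hrnr and most Lce genes of the late envelope. Sprr2a1, a small proline-rich gene with near-identical copies that may share its reads, picked out after its values were seen, had 3580.2 and 418 CPM in resistant, 2017 and 1383 CPM in lenvatinib and 3508, 2126, 2112 and 586 CPM in parental libraries. Unlike Sprr1a, it was lower in resistant SNU-6625 than in any other library. The Krt1 and Krt10 genes of suprabasal epidermis had at most 1.14 and 2.41 CPM.

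**Figure D5:**
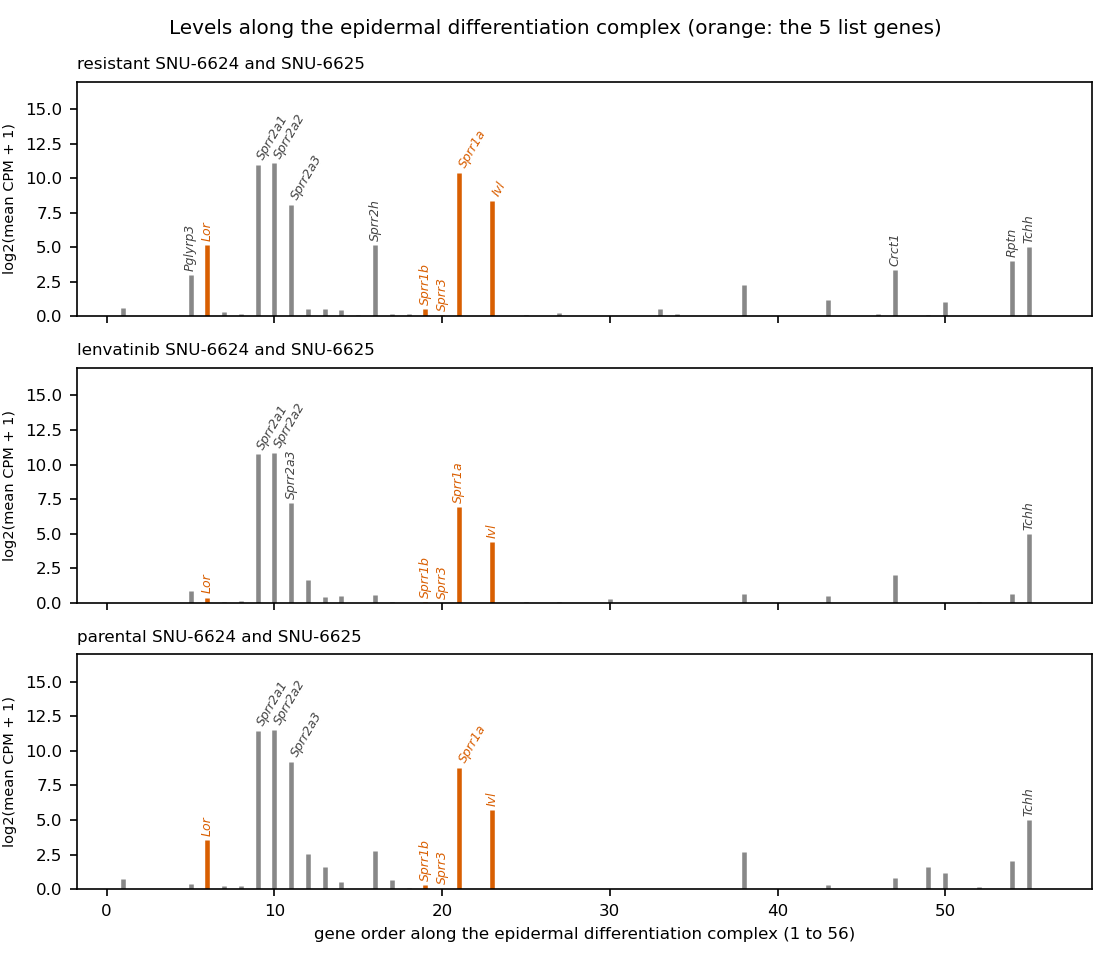
Mean level of the 56 protein-coding genes of the epidermal differentiation complex in chromosomal order (x axis), as log2(mean CPM + 1) over SNU-6624 and SNU-6625, for resistant, lenvatinib and parental libraries from top to bottom; Lor, Sprr1b, Sprr3, Sprr1a and Ivl are orange. Ivl, Sprr1a and Lor are lowest in the middle panel, and most positions hold no visible bar in any panel.

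Set among the other keratins, the squamous ones were a minor share of keratin RNA. The 10 squamous keratins held 19.7 and 3.86% of the CPM of all 53 keratin genes in resistant, 3.09 and 3.15% in lenvatinib and 17.2, 12, 13.5 and 28% in parental libraries. Most of the rest was Krt8, Krt18, Krt19 and Krt7 of simple epithelium. Of 6 simple keratins tested, 2 fell with lenvatinib, Krt19 by 3.25 on the log2 scale (SE 0.38, adjusted p = 0.0371) and Krt20 by 2.84 on the log2 scale (SE 0.22, adjusted p = 0.0305), and 4 rose between resistant and lenvatinib libraries (Krt19, Krt20, Krt7 and Krt8). Of 9 further epidermal keratins, 4 were tested, and Krt80 fell with lenvatinib by 2.02 on the log2 scale (SE 0.16, adjusted p = 0.0305) and rose between resistant and lenvatinib libraries by 2.80 (SE 0.17, adjusted p = 0.0174). Of 24 hair and inner root sheath keratins in the files, 8 were tested, and the 1 call was Krt79, which rose between resistant and lenvatinib libraries.

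Further lists of squamous genes held both called and uncalled members. With lenvatinib 3 of 19 envelope genes, 1 of 11 hemidesmosome and basal genes, 1 of 15 regulators, 0 of 7 desmosome genes and 0 of 10 genes of the lipid envelope fell, beside 4.08% of all genes; between resistant and lenvatinib libraries 3, 2, 5, 2 and 1 of these rose, beside 4.14%. Of 19 further envelope genes tested, 3 fell with lenvatinib and the same 3 rose between resistant and lenvatinib libraries: Kprp, a proline-rich keratinocyte protein, Pof1b, an actin-binding epithelial protein, and Tgm5, another epidermal transglutaminase. Tgm5 had 4.93 and 2.88 CPM in resistant, 0.159 and 0.239 CPM in lenvatinib and 1.46 and 1.9 CPM in parental libraries. Of 7 further desmosome genes tested, the 2 calls were rises between resistant and lenvatinib libraries, of Dsp, the desmoplakin gene, by 1.27 (SE 0.20, adjusted p = 0.0456) and of Pkp3 by 1.74 (SE 0.25, adjusted p = 0.0404). Of 11 hemidesmosome and basal genes tested, Lama3, a laminin chain of the basement membrane, fell by 3.32 on the log2 scale (SE 0.30, adjusted p = 0.0323) with lenvatinib, and Lama3 and Dst rose between resistant and lenvatinib libraries. Among 15 further regulators tested, Ehf fell by 1.14 on the log2 scale (SE 0.19, adjusted p = 0.0489), and Ehf, Grhl2 and Klf4 were among those that rose between resistant and lenvatinib libraries, Ehf by 1.92 (SE 0.20, adjusted p = 0.0311). Of 10 genes for the lipid part of the envelope, the 1 call was Cers3, a ceramide synthase of the skin barrier, which rose between resistant and lenvatinib libraries by 1.86 (SE 0.27, adjusted p = 0.0404).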

How the data were processed

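Poly(A) RNA of 8 mouse organoid cultures was sequenced from stranded libraries, per the labels' protocols. The authors deposited whole-number read counts per gene, 1 table per library, per the file headers. The submitters' processing notes name the aligners HISAT2 2.1.0 and Bowtie2 2.3.4.1, then Trimmomatic 0.38, FastQC 0.11.7 and StringTie 2.1.3b, and the build mm10. Counting and its strand setting: not given in the sources used here; hence overlapping genes and near-identical copies may share reads.

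The 36 genes, the comparison lists and the tests were chosen with earlier results of these data known. Per the rule for named genes, all 36 are named, those reaching 10 CPM in any library with every value, and up to 4 called genes of each further list by smallest p; some genes of the further lists are not reported here. CPM was computed from total counts. All 17038 genes passing edgeR's own low-count filter were tested with edgeR 4.0.16 (R 4.3.3; quasi-likelihood F test, TMM scaling, Benjamini-Hochberg adjustment over all of them) on the 6 libraries of the lines with all 3 groups (SNU-6624 and SNU-6625), in a model of group plus line, leaving 2 residual degrees of freedom (biological coefficient of variation 0.336). Line enters as a replicate block because same-numbered libraries come from the same line; their deviations from the group means correlated at 0.288 to 0.504 across genes. An SE is the size of a log2 fold change over the root of its F statistic. Per-line differences use log2(CPM + 1). Parental lines, and resistant against parental libraries, are described without a test of these genes, apart from Dixon's criterion for a far value among the 4 parental lines. DESeq2 1.42.0, limma-voom (limma 3.58.1), other scalings, filters and sets of libraries were alternatives; a fit on only the 4 libraries compared was added after seeing the data. The steps were tested on simulated data. Lengths came from GENCODE vM21; promoter sequences came from RefSeq (GRCm38.p6).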

Additional observations from a re-analysis of the deposited data

Results flagged for a closer look

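Of 26 squamous genes with 10 CPM or more in any library, Krt84 and Ly6d left aside, 2 had one parental line far from the other 3 by Dixon's criterion. Chance alone meets it in about 1 in 20 groups of 4 normally distributed values, whereas untransformed CPM were used here. The share of all genes that met it was not computed, so 2 of 26 is a description and shows no trait of these genes. The line was SNU-6621, high for the basal keratin gene Krt5, at 160.4 CPM, and for the basal factor gene Trp63, at 77.6 CPM. SNU-6621 also lay far from the other lines for the hair keratin gene Krt84, high at 1813.9 CPM, and for the surface protein gene Ly6d, low at 29.3 CPM; these were in view when the genes were chosen and are a description. Each line has 1 parental library.

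For 5 genes the resistant minus parental difference in log2(CPM + 1) went opposite ways by at least 2-fold in the 2 lines; the difference between the lines was not tested. In SNU-6624 and SNU-6625 it was -1.24 and 1.08 for Dmkn, 1.5 and -2.13 for Krt13, -1.27 and 1.91 for Krt14, 1.14 and -2.76 for Krt4, and -1.2 and 2.27 for Krt5.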

How the results depend on the processing

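The counts here are over all squamous genes tested. They include those whose values had been in view and those that passed the filter only through other groups than lenvatinib, so they are a description. With no replicate block, 7 fell with lenvatinib (3.83% of all genes) and 11 rose between resistant and lenvatinib libraries (4.01% of all genes). With it they were 8 (4.08% of all genes) and 11 (4.14% of all genes), but not the same genes. Without it Lor and Tgm1 were no longer called and Dmkn was called with lenvatinib. Between resistant and lenvatinib libraries Tgm1 was lost and Dmkn and Krt6a were gained. Krt84 was among the 11 only with the block, but its difference was built in by the filter. DESeq2 called 19 lower with lenvatinib (13.7% of all genes) and 23 higher in resistant than in lenvatinib libraries (13% of all genes). With no filter on low counts 3 were lower with lenvatinib (0.644% of all genes). Leaving out 1 library moved the calls lower with lenvatinib from 0 to 23, the calls higher with lenvatinib from 0 to 1, and the calls higher in resistant than in lenvatinib libraries from 0 to 29. The fit on the 4 libraries compared, added after seeing the data, called 22 lower and 1 higher with lenvatinib, where 25.5% of all genes were lower and 22.8% higher. The cause of these shifts was not tested. Scaling by library size moved the median of all genes to 0.07 for lenvatinib against parental and -0.14 for resistant against lenvatinib, and the share of rises among calls from 29.3 to 43.4% and from 66.5 to 47.3%; the squamous genes called were 8 and 11 as before. For resistant against parental, leaving out 1 library gave 7 to 20 genes with a log2 fold change of 1 or more and 2 to 6 with -1 or less. The share of all genes with such changes was not computed. At 1 CPM, 24 genes were expressed in every parental line, and the share of all listed genes at that level was not computed.

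Fitted log2 fold changes of 8 single genes changed sign when 1 library was left out. For lenvatinib against parental they ran from -0.72 to 0.44 for Cdsn, -4.28 to 0.51 for Krt16, -3.35 to 1.15 for Krt5, -0.46 to 0.04 for Ppl (0.01 without parental SNU-6624), -0.6 to 0.05 for Sbsn, -6.52 to 4.09 for Sprr1b and -0.07 to 0.15 for Grhl1 (-0.02 without parental SNU-6625). The positive values of Cdsn, Krt16, Krt5, Sbsn and Sprr1b came without parental SNU-6624. For resistant against lenvatinib, Sfn ran from -0.48, without resistant SNU-6625, to 1.18 (-0.04 without lenvatinib SNU-6625). Where an arm had 1 library, it was assumed to vary like the other groups. Depth limits genes with few counts: the lenvatinib values of Lor, Aqp3, Grhl3, Krt15 and Trp63 rest on 5 to 24 counts.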
